A study of Mus musculus with 8 samples.

Results

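The genes described here are 46 genes of Activin, Nodal, TGF-beta and BMP signalling, of 21000 protein-coding genes in all. They were chosen by what they encode, with earlier results of these data known. They fall into 9 ligands, 10 receptors and co-receptors, 6 signal-transducing Smads and 4 extracellular antagonists. The others are 10 membrane and intracellular inhibitors, 2 genes of the latent complex, 1 nuclear partner and 4 Id targets. A gene was given a c-Jun peak when the centre of a peak lay no further than 10 kb from one of its transcription start sites (TSSs). By this rule 18 of the 46 genes (39.1%) had a c-Jun peak in EpiSCs, where 21.8% of all protein-coding genes had one, and 5 (10.9%) in kEpiSCs, where 8.27% of all genes did.

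EpiSCs are pluripotent cells in the primed state, taken from the epiblast of mouse embryos. kEpiSCs are EpiSCs with a Klf4 transgene, delivered by lentivirus and selected with G418. The paper states that the kEpiSC line also carries an Oct4-GFP reporter. The labels give the strain CBA/CaJ X C57BL/6J for the c-Jun libraries of the EpiSCs and no strain for the kEpiSCs, whereas the methods of the study name another cross for the EpiSCs. Both lines were grown in medium with Activin A (20 ng/ml) and bFGF (20 ng/ml), and no cells grown without Activin A were measured. The signalling itself was not measured. c-Jun was measured by ChIP-seq with 2 ChIP and 2 input libraries per line, 8 libraries in all. The deposited table is 1 peak list per line. The labels name each list with ChIP replicate 1 of its line, so its values may describe that library alone. No value can be given per library, no spread between replicates exists and no difference between the lines can be tested. The lists hold peaks and no expression, so neither pluripotency markers nor the Klf4 transgene could be checked. The antibody field of the labels names c-Jun, whereas the protocol text attached to the same samples names H3K27ac.

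Activin, Nodal and TGF-beta bind pairs of type II and type I serine/threonine kinase receptors, which phosphorylate Smad2 and Smad3, while BMPs act in the same way on Smad1, Smad5 and Smad9. The phosphorylated Smads join Smad4, enter the nucleus and bind DNA with partners such as Foxh1. Several of their direct targets encode inhibitors of the pathway, among them the Lefty proteins outside the cell and Smad7, Skil and Pmepa1 inside it, which makes the pathway limit itself. EpiSCs need activin and FGF signals to stay in the primed state. c-Jun pairs with Fos and other Jun proteins to form AP-1, which binds TGACTCA (read on either strand, so also as TGAGTCA).

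The EpiSC list holds 16166 peaks and the kEpiSC list 6032. A fold enrichment is the pileup of ChIP reads at the summit of a peak over the local background, with 1 added to both. From this fold and the p-value, a median of 10 reads lay at the summit of an EpiSC peak (quartiles 8 and 13) and 14 at the summit of a kEpiSC peak (quartiles 11 and 18).

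In EpiSCs 39.1% of the 46 genes had a c-Jun peak, against 21.8% of all 21000 protein-coding genes. The members are long, with a median gene length of 34.0 kb against 16.7 kb for all genes, and the share of all genes with a peak differed by length. It was 15.5% in the shortest of 4 equal groups of genes by length, 23.3% in the second, 24.2% in the third and 24.0% in the longest. In the same order 3 of 7, 5 of 10, 4 of 9 and 6 of 20 members had a peak. The members were therefore above all genes in each of the 4 groups, and least so among the longest genes. The 18 genes had 24 peaks between them, or 24.2 peaks per Mb of searched sequence, against 14.1 per Mb around all genes.

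The peaks that make up this count were weak. Their median fold enrichment was 5.23 (3.70 to 9.90), against 5.82 for all peaks within 10 kb of a protein-coding TSS and 6.16 for the whole list. Of the 24 peaks, 19 lay in the lower-scoring part of the list (below the median −log10 q), and 17 had 10 reads or fewer at the summit. Among all peaks within 10 kb of a TSS 56.2% were in the lower-scoring part. With the higher-scoring peaks alone, 5 of the 46 genes (10.9%) had a peak, namely Tdgf1, Smad7, Tgif1, Pmepa1 and Id3, against 10.6% of all genes. The members' share above all genes in EpiSCs was thus not present among the higher-scoring peaks.

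**Figure D1:**
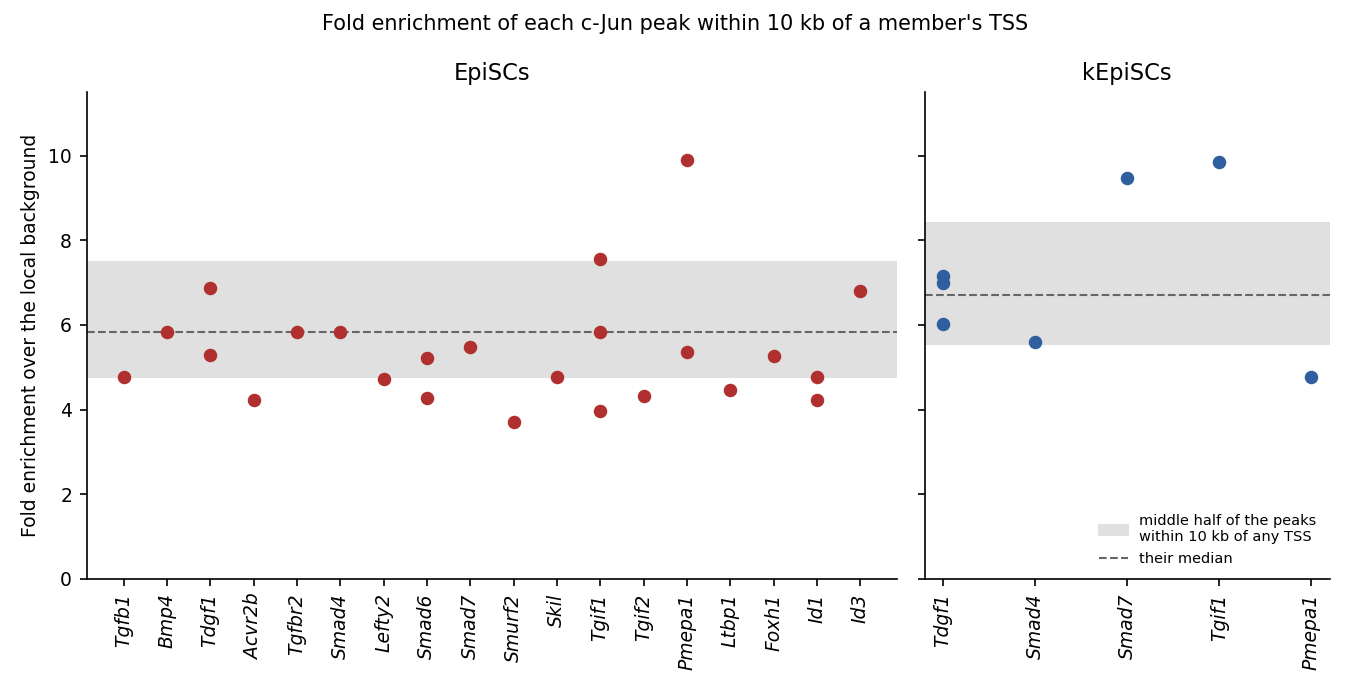
The y axis is the fold enrichment over the local background of each c-Jun peak counted for a member (points, left EpiSCs, right kEpiSCs). The grey band runs from the lower to the upper quartile of all peaks within 10 kb of a protein-coding TSS (4.76 to 7.48 in EpiSCs, 5.54 to 8.40 in kEpiSCs) and the dashed line is their median. In EpiSCs 2 points lie above the band, a Tgif1 peak at 7.55 and a Pmepa1 peak at 9.90.

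The roles differed in how many of their genes had a c-Jun peak in EpiSCs. Of the 10 membrane and intracellular inhibitors 7 had a peak (70.0%), and of the 25 ligands, receptors and signal-transducing Smads 6 did (24.0%), close to the 21.8% of all genes. The 4 extracellular antagonists had a peak in 1 case (25.0%), also close to all genes. Counted with them, the inhibitors had a peak in 8 of 14 cases (57.1%). The 10 membrane and intracellular inhibitors had 53.2 peaks per Mb of searched sequence. The 36 members other than these inhibitors had a peak in 11 cases (30.6%). The roles hold few genes each, and with 1 list and no replicates the difference between roles was not tested.

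**Figure D2:**
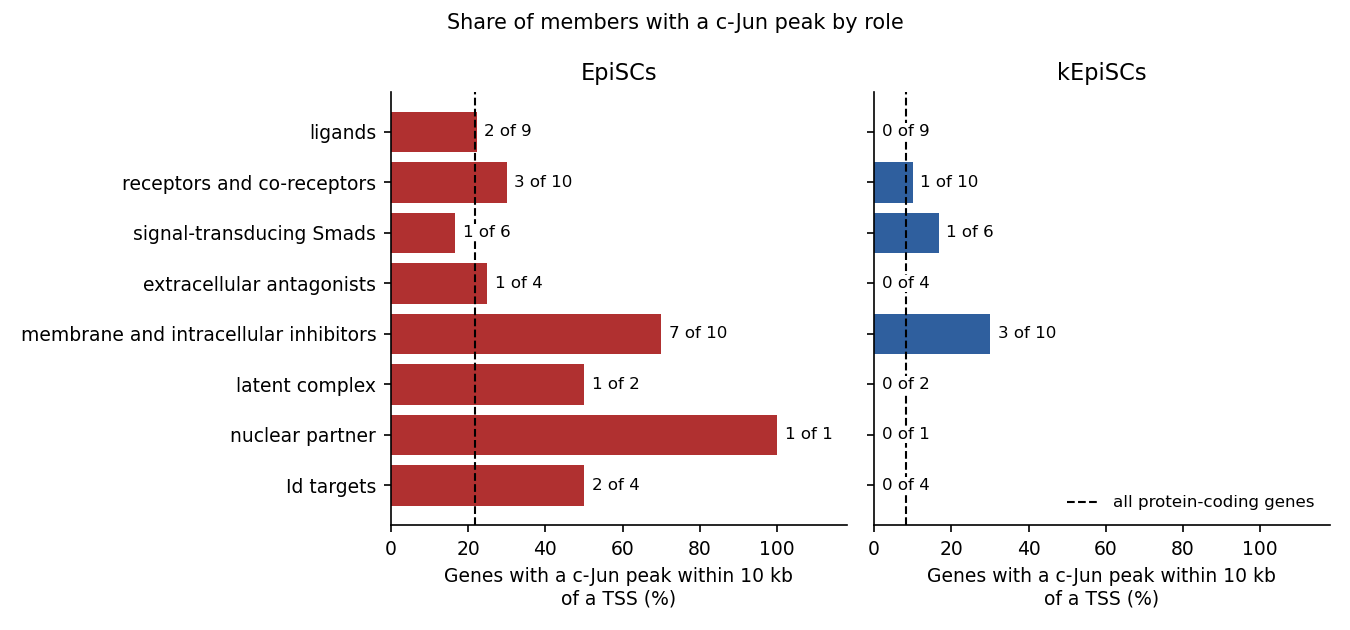
The x axis is the percentage of the genes of each role with a c-Jun peak no further than 10 kb from a TSS, in EpiSCs (left) and kEpiSCs (right), and the dashed line is the percentage of all protein-coding genes (21.8% and 8.27%). The membrane and intracellular inhibitors, with 7 of 10 and 3 of 10 genes, extend furthest past the line among the roles with more than 4 genes.

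Among the membrane and intracellular inhibitors the highest-scoring peak was at Pmepa1, which encodes a membrane protein that binds Smad2 and Smad3 and keeps them from the receptor. Pmepa1 had 2 peaks. The larger lay between genes, 5238 bp upstream of the TSS at chr2:173281673-173281870 (mm10), and had a fold enrichment of 9.90, a −log10 q of 13.4 and 17 reads at the summit. Of the EpiSC list 11.7% scored above it. The other lay in intron 1, 1224 bp downstream of the TSS, where the fold enrichment was 5.37 with 8 reads. Both held TGACTCA, in the upstream peak 11 bp from the summit and in the intron 89 bp from it.

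Tgif1, whose homeodomain protein represses Smad2 and Smad3 at their targets, had 3 peaks. The highest was 9739 bp downstream of the nearest of its TSSs, between genes at chr17:70836932-70837145, with a fold enrichment of 7.55, a −log10 q of 11.1 and 20 reads, and 18.1% of the list scored above it. It held TGAGTCA 24 bp from the summit. The other Tgif1 peaks, 2945 bp downstream and at the promoter 482 bp upstream, had folds of 3.97 and 5.83 with 5 and 9 reads and no AP-1 site. The related gene Tgif2 had a peak in intron 1, 2589 bp downstream of the TSS, with a fold of 4.32 and 11 reads, and TGACTCA 35 bp from the summit. Skil, which encodes the corepressor SnoN, had a peak 4759 bp upstream with a fold of 4.77, 7 reads and TGACTCA 47 bp from the summit.

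Of the 11 EpiSC peaks of the inhibitors 6 held an AP-1 site. The reference sequence around 5 of them is shown because this is the role with the most peaks, and it gives the bases on both sides of the core. The lines run 5′ to 3′ on the plus strand of mm10, with the AP-1 site in capitals.
Pmepa1 upstream, chr2:173281734-173281784: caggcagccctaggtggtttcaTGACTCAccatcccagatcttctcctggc
Pmepa1 intron 1, chr2:173275249-173275299: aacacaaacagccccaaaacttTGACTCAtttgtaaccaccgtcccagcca
Tgif1 downstream, chr17:70837021-70837071: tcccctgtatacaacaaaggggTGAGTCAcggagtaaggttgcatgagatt
Tgif2 intron 1, chr2:156842481-156842531: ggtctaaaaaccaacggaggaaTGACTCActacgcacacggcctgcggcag
Skil upstream, chr3:31090183-31090233: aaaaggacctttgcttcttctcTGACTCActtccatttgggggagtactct

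The inhibitory Smads both had peaks. Smad7, which blocks the type I receptor and recruits Smurf ubiquitin ligases to it, had a peak in intron 2, 8462 bp downstream of the TSS at chr18:75375668-75375986, with a fold of 5.48, a −log10 q of 8.96 and 24 reads. The local background there was 5.61 times the median of the list, the highest among the members' peaks, which lowers the fold. The peak held an AP-1 site 11 bp from the summit. Smad6, which acts mainly on BMP signalling, had 2 weak peaks with folds of 4.28 (5′ UTR, 858 bp downstream of the TSS, 7 reads) and 5.21 (5 bp from the TSS, 9 reads). Neither held an AP-1 site, but the peak at the TSS held GTCTAGAC, the palindrome bound by Smad proteins, from position 64022056 of chromosome 9. Of all EpiSC peaks within 10 kb of a TSS 0.174% held these letters in their central 200 bp.

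Smurf2, a ubiquitin ligase for the receptors and Smads, had the weakest peak of the set, with a fold of 3.70 and 6 reads, and 97.4% of the list scored above it. At 9968 bp from the TSS it was also the peak closest to the limit. The remaining inhibitors had no peak in the 10 kb. Ski, a corepressor, had its nearest peak at 13.1 kb with a fold of 7.41. Smurf1 had its nearest at 23.1 kb with a fold of 6.88, in an intron of Kpna7. For Bambi, a pseudoreceptor that lacks the kinase, it was at 170 kb.

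Of the ligands, 2 of 9 had a c-Jun peak in EpiSCs. The higher-scoring was at Bmp4, a BMP ligand of the early embryo, in intron 1 and 1768 bp downstream of the TSS at chr14:46388820-46388983, with a fold of 5.82, a −log10 q of 5.03 and 10 reads, and 57.5% of the list above it. The peak counted for Tgfb1 had a fold of 4.76 and 8 reads and lay 6144 bp upstream, where it was 78 bp from the TSS of the neighbouring gene B9d2. Neither held an AP-1 site. Nodal, the ligand of the pathway in the epiblast, had its nearest peak 41.9 kb away with a fold of 7.73. That peak lay in intron 1 of Pald1. Tgfb3 and Bmp7 had their nearest peaks at 26.0 and 24.1 kb, the former in an intron of Ift43 and the latter nearer to Spo11. Inhba and Inhbb, which encode the activin subunits, Tgfb2 and Bmp2 had none within 50 kb.

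Of the 10 receptors and co-receptors 3 had a peak. Tdgf1, which encodes Cripto, the co-receptor that Nodal needs, had 2. The higher-scoring lay 5362 bp upstream at chr9:110951317-110951723, with a fold of 6.88, a −log10 q of 7.08 and 12 reads, and 37.3% of the list scored above it. Its centre was 25 bp from the TSS of Lrrc2, so it is also a promoter peak of that gene. The other lay between genes 8160 bp downstream, with a fold of 5.29 and 9 reads. Both are shown because the kEpiSC list has them too, and each held TGACTCA, 29 and 36 bp from its summit.
Tdgf1 upstream, chr9:110951560-110951610: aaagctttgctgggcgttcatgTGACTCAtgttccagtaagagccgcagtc
Tdgf1 downstream, chr9:110937853-110937903: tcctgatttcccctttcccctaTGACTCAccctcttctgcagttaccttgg

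Tgfbr2, the type II receptor for TGF-beta, had a peak in its 5′ UTR, 102 bp from the TSS, with a fold of 5.82, 10 reads and TGACTCA 65 bp from the summit. Acvr2b, a type II receptor for activin and Nodal, had a promoter peak of 4.23 with 7 reads and no AP-1 site. Acvr1b, the type I receptor for activin, fell just outside the limit, with a peak of 7.23 at 10013 bp upstream. Bmpr1a was next at 10.8 kb with a fold of 4.75, and Acvr1, Acvr2a, Tgfbr1, Tgfbr3 and Bmpr2 had none within 50 kb of a TSS.

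Of the 4 extracellular antagonists Lefty2, a Nodal inhibitor and direct target, had a peak. It lay between genes 4121 bp upstream at chr1:180888915-180889059, with a fold of 4.73, a −log10 q of 3.79 and 11 reads. The background was 2.42 times the median of the list, and 75.9% of the list scored above it. It held no AP-1 site, but its central 200 bp held AATCCACA at 2 positions, a form of the sequence AATNCACA that Foxh1 binds. Foxh1 sites in an upstream enhancer are known to drive Lefty2, and whether this peak lies in that enhancer was not tested. The match inside the peak and 13 bp from its summit is shown in capitals on the plus strand of mm10.
Lefty2 upstream, chr1:180888954-180889005: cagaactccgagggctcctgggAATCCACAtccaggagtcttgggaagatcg
The same peak was the nearest to Lefty1, at 46.0 kb. Fst, the activin antagonist follistatin, and Cer1 had theirs at 38.5 and 35.7 kb. The Fst peak was nearer to Ndufs4, and the Cer1 peak lay in an intron of Zdhhc21.

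Of the 6 signal-transducing Smads only Smad4, the common partner of the others, had a peak within 10 kb in EpiSCs. It lay between genes 4633 bp upstream at chr18:73708268-73708580, with a fold of 5.82, a −log10 q of 5.03 and 10 reads, and 57.5% of the list above it, and it held an AP-1 site 164 bp from the summit. Smad3 fell just outside, with its nearest peak at 10089 bp (fold 4.68). Smad5 had its nearest peak at 38.3 kb, and Smad1, Smad2 and Smad9 had none within 50 kb.

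Foxh1 itself, the DNA-binding partner of Smad2 and Smad3, had a promoter peak 181 bp upstream at chr15:76670072-76670186, with a fold of 5.26, a −log10 q of 3.79 and 7 reads, and 75.7% of the list above it. Cyhr1, Kifc2 and Ppp1r16a have a TSS within 10 kb of the same peak. Ltbp1, whose protein holds TGF-beta in its latent complex, had a peak in coding exon 1 at chr17:75005978-75006137, 528 bp from a TSS, with a fold of 4.45, a −log10 q of 2.79 and 8 reads, and 87.7% of the list above it. Ltbp3 had none within 50 kb.

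The Id genes encode inhibitors of helix-loop-helix factors and are direct BMP targets. Id3 had a peak between genes 3080 bp downstream at chr4:136146788-136147016, with a fold of 6.80, a −log10 q of 6.98 and 12 reads, and 39.7% of the list above it. Id1 had 2 weak peaks, 9661 bp upstream (fold 4.23, 7 reads) and 5491 bp downstream (fold 4.76, 8 reads). Id4 and Id2 had their nearest peaks at 12.7 and 34.9 kb.

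**Figure D3:**
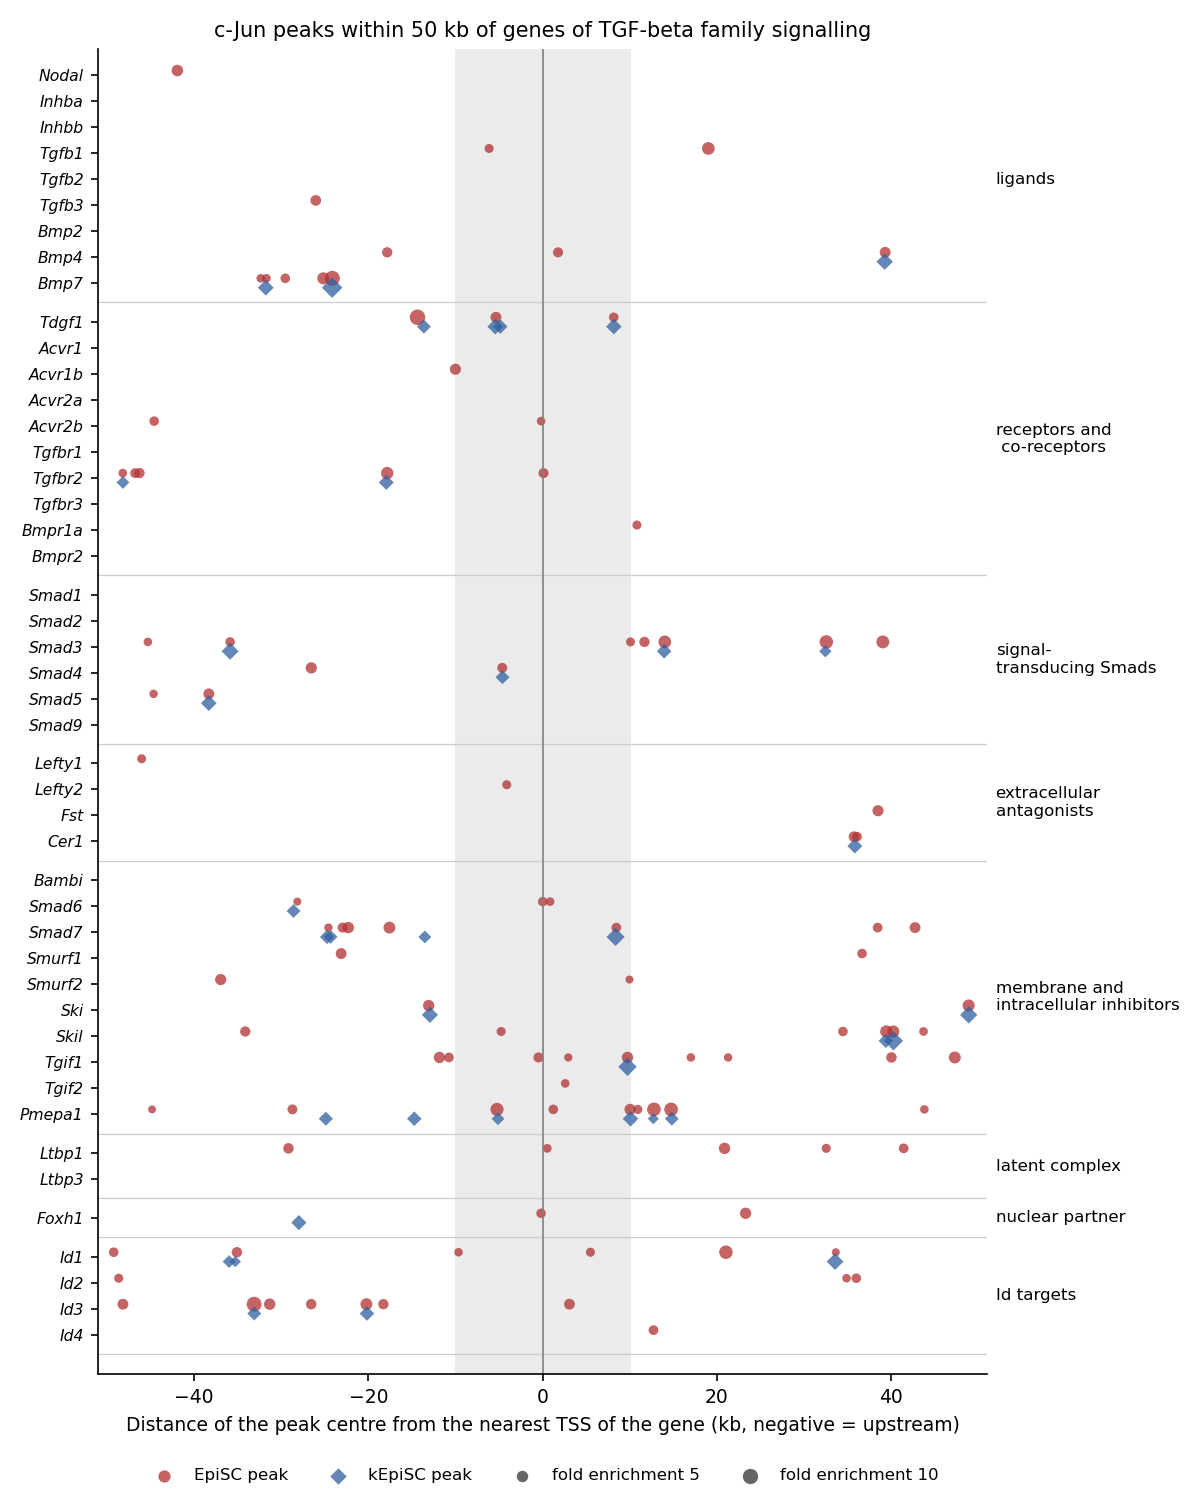
The x axis is the distance in kb from the nearest TSS of each member (rows, grouped by role) to the centre of each c-Jun peak within 50 kb, with upstream to the left. Circles are EpiSC peaks, diamonds kEpiSC peaks, the area of a symbol grows with the fold enrichment and the grey band marks 10 kb on both sides. Tgif1 and Pmepa1 have 9 EpiSC peaks each within 50 kb.

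In kEpiSCs 5 of the 46 genes (10.9%) had a c-Jun peak, against 8.27% of all protein-coding genes. By length this background was 6.06%, 8.44%, 8.84% and 9.73% from the shortest to the longest group of genes, and 0 of 7, 2 of 10, 1 of 9 and 2 of 20 members had a peak. The members' share was thus near that of all genes. The 5 genes were Tdgf1, Smad4, Smad7, Tgif1 and Pmepa1, and all 5 also had a peak in EpiSCs. By role they were 3 of the 10 membrane and intracellular inhibitors, 1 of the 10 receptors and co-receptors and 1 of the 6 signal-transducing Smads. Together with the extracellular antagonists the inhibitors had a peak in 3 of 14 cases (21.4%). No gene of another role had a peak within 10 kb.

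The 5 genes had 7 kEpiSC peaks, with a median fold of 6.98 against 6.70 for all kEpiSC peaks within 10 kb of a TSS. The highest-scoring was at Smad7, at chr18:75375667-75375809 in intron 2, with a fold of 9.47, a −log10 q of 12.3 and 24 reads, and 15.2% of the list above it. The Tgif1 peak at chr17:70836948-70837125 had a fold of 9.84, a −log10 q of 11.6 and 17 reads. Tdgf1 had 3 peaks, with folds of 6.98 downstream and 6.02 and 7.16 upstream at the Lrrc2 promoter, and 49.3% of the list scored above the highest. Smad4 (fold 5.60, 9 reads, −log10 q 2.87) had 84.9% of the list above it. The Pmepa1 peak upstream of the TSS had a fold of 4.77 and 10 reads, against 9.90 and 17 reads in EpiSCs.

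At the members, 6 of 24 EpiSC peaks (25.0%) shared at least 1 bp with a kEpiSC peak, and 6 of 7 kEpiSC peaks (85.7%) with an EpiSC peak. Among all peaks within 10 kb of a TSS these shares were 23.2% and 68.9%. The 6 EpiSC peaks in both lists belonged to Tdgf1, Smad4, Smad7, Tgif1 and Pmepa1 and had a median of 14.5 reads at the summit, against 8.00 for the 18 others. All 6 held an AP-1 site within the peak, against 5 of the 18 others. Read the other way, 6 of the 11 member peaks with an AP-1 site overlapped a kEpiSC peak, and no member peak without one did. Among all EpiSC peaks within 10 kb of a TSS, 37.0% of those with an AP-1 site and 13.8% of those without one overlapped a kEpiSC peak. None of the 6 was a promoter peak of a member, and the nearest to a member's TSS was 4633 bp away. The kEpiSC list is the shorter list, and the part of its length in these shares was not tested.

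Of the 24 EpiSC peaks 10 held the AP-1 site TGACTCA in their central 200 bp, which is 41.7% (95% Wilson interval 24.5 to 61.2%), against 35.7% (34.4 to 37.0%) of all peaks within 10 kb of a TSS. Windows of the same length 2 kb to each side held it in 4.17% (1.15 to 14.0%) of cases at the members and 3.58% at all these peaks. The share at the members was thus within counting error of that at all peaks and above that of the flanks. It was also uneven with distance, since 1 of 7 peaks within 1 kb of a TSS held the site and 9 of 17 further away. Among all peaks the shares were 16.3% and 46.8%. Over whole peaks, 11 sites lay in the peaks of 9 genes, and 7 of them were within 50 bp of the summit. In kEpiSCs 3 of the 7 peaks (42.9%) held the site in the central window, against 49.2% of all kEpiSC peaks near a TSS, and 6 of 7 (85.7%) held it anywhere in the peak, against 54.0%.

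Sequences bound by the factors of the pathway were searched in the same windows on both strands. TGACGTCA, the CRE-type site of Jun and ATF dimers, was in 0 of the 24 windows (95% Wilson interval up to 13.8%) and in 3.42% of those of all peaks near a TSS. The SMAD box CAGAC was in 33.3% (18.0 to 53.3%), against 41.3% of all peaks and 50.0% of the members' own flanks. AATNCACA was in 4 of 24 windows, 16.7% (6.68 to 35.9%), against 2.78% (2.37 to 3.26%) of all peaks and 2.08% of the flanks. The 4 windows belonged to peaks of Lefty2, Smad7, Tgif1 and Tgif2. The Tgif1 and Tgif2 matches lay 161 and 123 bp from the summit, and that Tgif1 peak had 5 reads. In kEpiSCs 0 of the 7 members' windows held AATNCACA (95% Wilson interval up to 35.4%), against 2.24% of all peaks near a TSS. No 2 of these sequences contain each other, and a match describes the letters only.

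**Figure D4:**
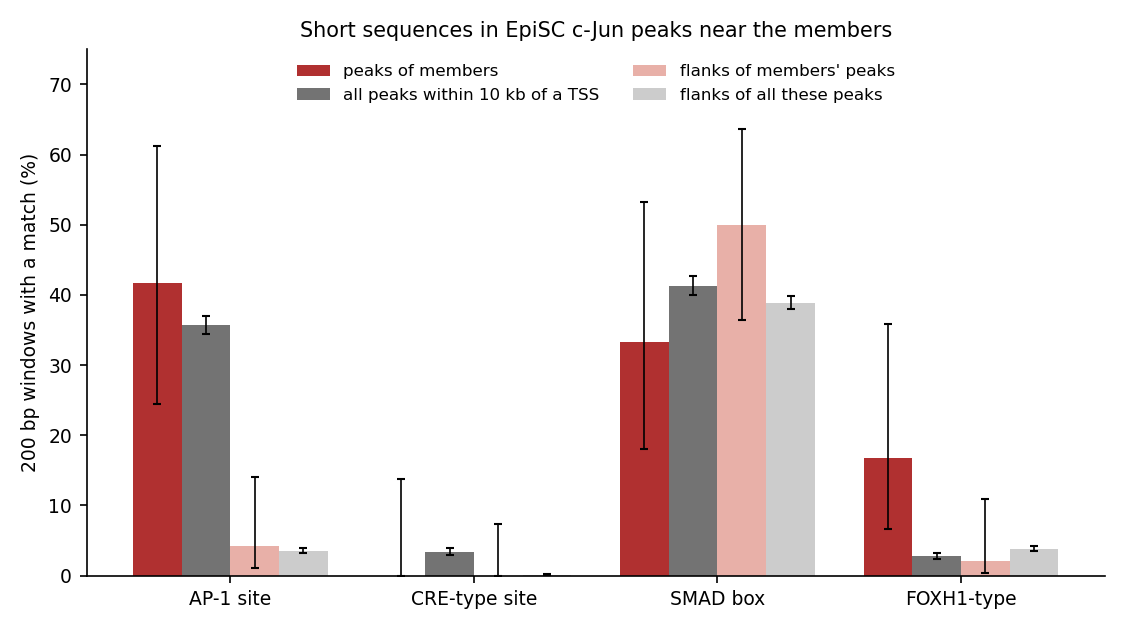
The y axis is the percentage of 200 bp windows with a match to the AP-1 site, the CRE-type site, the SMAD box or the Foxh1-type sequence, and the bars carry 95% Wilson intervals. Red bars are the 24 EpiSC peaks of the members, dark grey all peaks within 10 kb of a protein-coding TSS, and the light bars windows 2 kb away. For the AP-1 site the members stand at 41.7% and all peaks at 35.7%, and for the Foxh1-type sequence at 16.7% and 2.78%.

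Over longer distances the members stayed closer to a c-Jun peak than genes at large. The median distance from a member to its nearest EpiSC peak was 18.1 kb, against 48.3 kb for all genes, and 69.6% of the members had a peak within 50 kb, against 50.7%. In kEpiSCs the medians were 70.2 and 134 kb, and 37.0% against 27.0% had a peak within 50 kb. The members also lie further from other genes, with a median of 124 kb of genome nearer to their TSSs than to any other gene's, against 48.9 kb for all genes. The part of this spacing in the distances was not tested.

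**Figure D5:**
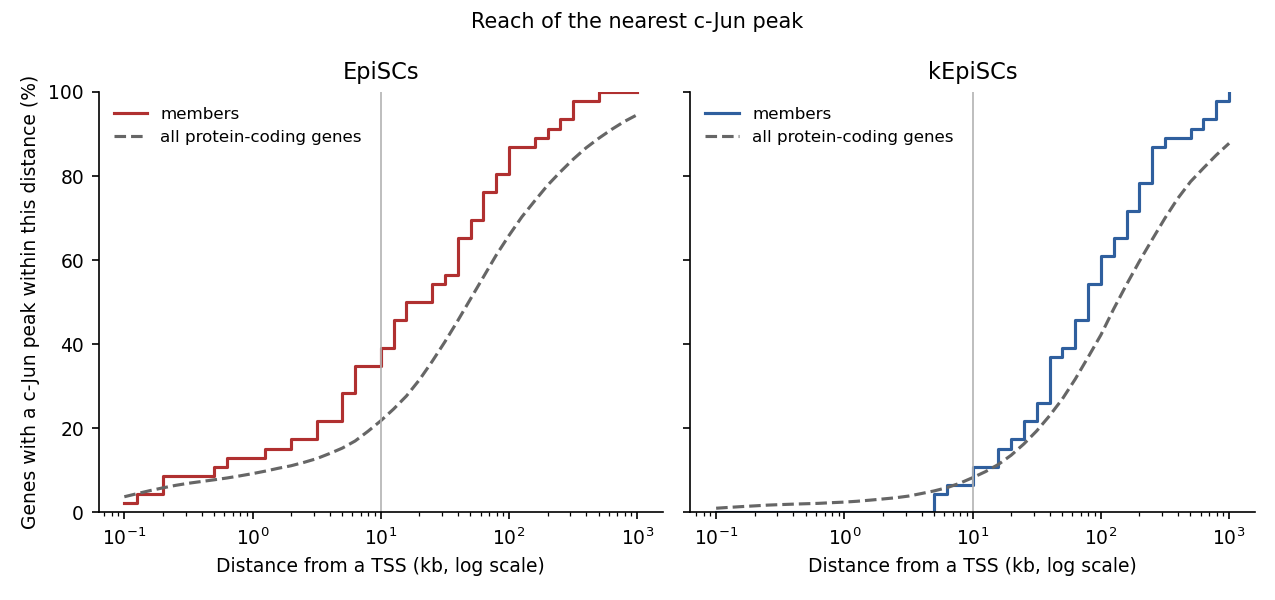
The x axis is the distance from a TSS in kb on a log scale and the y axis the percentage of genes with a c-Jun peak within that distance. Solid lines are the 46 members, dashed lines all 21000 protein-coding genes, and the grey line marks 10 kb. In EpiSCs the members are at 39.1% and all genes at 21.8% at 10 kb, whereas in kEpiSCs the lines are at 10.9% and 8.27%.

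Inside the genes the peaks were concentrated at 3 members, which were singled out after their values were seen. In EpiSCs the bodies of the 46 genes held 51 peak centres, 21.4 per Mb, against 8.21 per Mb over all genes and 7.30 per Mb over the longest group of genes. Of the 51, 27 lay in Ltbp1, Smad3 and Pmepa1, and without these genes the density was 13.1 per Mb. In kEpiSCs the members held 12, or 5.04 per Mb against 2.94 over all genes, and 2.73 per Mb without the same 3 genes.

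Smad3, like Smad2 a substrate of the activin and TGF-beta receptors, had no EpiSC peak within 10 kb of its TSS. It had 9 in its introns. As many peaks were found in 0.343% of all genes and 1.33% of the longest group. Their folds ran from 4.68 to 10.5, and 8 of the 9 held at least 1 AP-1 site. Over the bodies of all members 25 of 51 peaks (49.0%) held one, against 50.9% of all peaks in gene bodies. The highest lay in intron 1, 32.6 kb from the TSS, with 16 reads at its summit and 2 AP-1 sites, and was present in kEpiSCs with a fold of 4.38. The peak 14.0 kb from the TSS (fold 9.29) was also present there, with a fold of 6.15.

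Ltbp1, a gene of 386984 bp, had 12 EpiSC peaks in its body, and 0.124% of all genes and 0.476% of the longest group had as many. Per Mb of gene body this was 31.0 peaks, fewer than the 80.9 of Smad3 and the 115 of Pmepa1. The highest Ltbp1 peak lay in intron 3 at chr17:75110039-75111087, 68.2 kb from the nearest TSS. It had a fold of 23.9 and 34 reads, and 0.136% of the EpiSC list scored above it. In kEpiSCs it had a fold of 15.4. Of the 12 peaks 8 held an AP-1 site, and this 1 was the only peak shared with kEpiSCs. Pmepa1 had 6 peaks in its body (as many in 0.948% of all genes and 3.70% of the longest group), 5 of them in intron 1, with the highest folds of 10.8 at 12.8 and 14.7 kb from the TSS. Of these 6 peaks 3 were shared with kEpiSCs and 2 held an AP-1 site. In kEpiSCs the shared peaks at 12.8 and 14.7 kb had folds of 3.54 and 5.54, with 95.1% and 71.0% of the list above them. They had 17 and 13 reads over local backgrounds of 6.30 and 2.10 times the median of that list, which lowers the fold. In EpiSCs both had 23 reads over a background of 1.94 times the median. The shared peak at 10.0 kb had a fold of 7.09 in kEpiSCs.

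The strongest EpiSC sites in the introns of Smad3 and Ltbp1 are shown on the plus strand of mm10 with an AP-1 site in capitals. Both are the highest EpiSC peaks within their genes and overlap a kEpiSC peak. In kEpiSCs the Smad3 peak was the lower of 2 in the gene, and 97.7% of the list scored above it. The local background there was 2.10 times the median of that list.
Smad3 intron 1, chr9:63725422-63725472: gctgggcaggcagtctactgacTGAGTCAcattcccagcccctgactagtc
Ltbp1 intron 3, chr17:75110537-75110587: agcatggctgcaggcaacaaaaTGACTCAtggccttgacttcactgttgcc

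Around the TSSs the number of EpiSC peaks within 50 kb was highest at Tgif1 and Pmepa1, with 9 each, a number reached by 0.790% of all genes. Smad3, Smad7 and Id3 had 7 each (1.96% of all genes have as many) and Skil and Id1 had 6 (3.33%). In kEpiSCs Pmepa1 had 6 (0.276%) and Smad7 and Tdgf1 had 4 each (1.51%). Of the 7 Id3 peaks the highest had a fold of 12.7, at 33125 bp upstream, and was found in kEpiSCs with a fold of 5.68.

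A further 34 genes of the pathway, listed by function, were counted in the same way. In EpiSCs 10 of them (29.4%) had a peak and in kEpiSCs 4 (11.8%), beside 21.8% and 8.27% of all genes. Those with the highest-scoring EpiSC peaks were the ligand gene Bmp8b (fold 11.6), the latent complex gene Ltbp2 (11.1), the matricellular target gene Ccn2, also called Ctgf (9.58), and Furin, a protease that matures TGF-beta family precursors (6.88). In kEpiSCs they were Ltbp2 (8.64), Bmp8b (8.87), Bmp6 (8.32) and Furin (6.69). By role 3 of 8 further ligands, 3 of 4 latent complex and protease genes, 3 of 6 target genes and 1 of 6 receptors had an EpiSC peak, whereas 0 of 7 further antagonists and 0 of 3 adaptors did.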

How the data were processed

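The authors aligned the ChIP-seq reads with Bowtie2 to mm10. Peaks were called by them from unique alignments with MACS2 under its defaults, with versions not given in the sources used here. The deposited lists, 1 per line, give for each peak a fold enrichment, a score derived from the q-value, the −log10 of the p-value and of the q-value, and the offset of the summit. Each list stands in the description of ChIP replicate 1 of its line and was taken as pooled, although it may hold that library alone. Columns without a sample numbered 0.

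Reads at the summit were solved from the deposited fold and p-value. Both columns were met within 0.01 for 100% of EpiSC and 99.6% of kEpiSC peaks, where 1 read counts 0.775 in the pileup of kEpiSCs. These reads are the only depth known, and intervals cover counting error only.

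TSSs, promoters (1000 bp upstream to 100 bp downstream) and sequences came from curated RefSeq transcripts and the genome of GRCm38.p6, the assembly of mm10. The background was every protein-coding gene, also in 4 groups of equal size by length. Members, lists and motifs were chosen with earlier results of these data known. Every member with a peak within 10 kb was named, with full values for the highest-scoring peak of each role, as were up to 4 of the further pathway genes per list. Alternatives covered the distance, the gene assignment, the peak threshold, the summit, the transcripts, the motif window and the overlap. The calculations were tested on simulated data. Python 3.11.15, numpy 2.4.6, pandas 2.3.3, scipy 1.17.1 and matplotlib 3.10.9 were used.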

Additional observations from a re-analysis of the deposited data

How the results depend on the processing

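No paired analysis was possible because the lists carry no values for separate replicates, which also means that leaving out a replicate was not possible. The count of 18 members in EpiSCs became 13 at 5 kb, 15 at q of 0.001 or less, 18 with the summit and 20 with all RefSeq transcripts, and it stayed above the share of all genes each time. It moved to 32 at 50 kb (69.6% against 50.7% of all genes) and to 5 with the higher-scoring peaks (10.9% against 10.6%). When each peak counted only for its nearest TSS, at any distance, it moved to 35 (76.1% against 33.5%). The members have a median of 124 kb of genome nearest to their TSSs, against 48.9 kb for all genes. The part of this spacing in the nearest-TSS counts of either line was not tested. The 7 intracellular inhibitors moved to 3 of 10 with the higher-scoring peaks. The 6 ligands, receptors and Smads moved to 13 of 25 at 50 kb, 19 with the nearest TSS and to 1 for the higher-scoring peaks. The 10 further pathway genes moved to 22 of 34 at 50 kb and to 6 for the higher-scoring peaks.

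In kEpiSCs the 5 members moved to 2 at 5 kb (4.35% against 5.12%) and 17 at 50 kb (37.0% against 27.0%). By nearest TSS at any distance, 21 members had a peak (45.7% against 17.3%). The 5 moved to 3 with the higher-scoring peaks (6.52% against 3.80%) and 3 at the stricter q (6.52% against 6.90%). The 3 inhibitors moved to 0 at 5 kb and 6 at 50 kb or with the nearest TSS. The 2 ligands, receptors and Smads moved to 7 at 50 kb, 12 with the nearest TSS, to 1 for the higher-scoring peaks and to 1 at the stricter q. The 4 further genes moved to 11 at 50 kb and 9 with the nearest TSS.

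The share of EpiSC member peaks with an AP-1 site moved from 41.7% to 80.0% of 5 higher-scoring peaks. In kEpiSCs it moved from 42.9% (3 of 7 peaks, against 49.2% of all peaks near a TSS) to 85.7% around the summit or over the whole peak (against 54.0% over whole peaks), 0 of 2 at 5 kb (0%) and 100% of 3 higher-scoring peaks. The overlap of EpiSC peaks with kEpiSC peaks moved from 25.0% to 6.67% at 5 kb and 80.0% of 5 higher-scoring peaks. In all, 42 alternatives kept these results within 1.5 times the count or within the interval of the share, and 30 did not. The wider distances and the stricter lists change the counts of all genes too. The overlap of EpiSC peaks with kEpiSC peaks also rose with fold among all peaks within 10 kb of a TSS. With these peaks in 4 groups by fold, it was 10.8% in the lowest group and 56.0% in the highest. For all peaks at 5 kb or in the higher-scoring part, neither this overlap nor the AP-1 share was counted. Few reads limit every value, with 5 to 24 at the summits of the members' EpiSC peaks.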

Other observations

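In EpiSCs 32 of the 46 members had a peak within 50 kb. Of the others, 4 had a nearest peak with a fold enrichment above 9.90, the highest EpiSC value within 10 kb of any member. These 4 were chosen after the values were seen, and the share of all genes with such a nearest peak was not counted. The EpiSC peak nearest to Inhbb, which encodes an activin subunit, lay 87.4 kb from the TSS and was enriched 20.5-fold, and the nearest kEpiSC peak lay at 87.5 kb with 13.3. For Tgfb2 both lists had their nearest peak at 95.8 kb, with folds of 14.4 and 9.80. For Smad1, a BMP Smad, both lay at 52.7 kb, with folds of 13.0 and 7.86. For Acvr2a, a type II activin receptor gene, the nearest EpiSC peak lay at 316 kb with a fold of 11.6 and the nearest kEpiSC peak at 796 kb with 12.7. A peak at such a distance may belong to another gene.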
